A study of Mus musculus with 6 samples.

Results

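The insulin-like growth factor (IGF) axis was followed through 8 genes in cultured mouse neural stem cells: the ligand gene Igf1, the receptor gene Igf1r, and the genes of the binding proteins Igfbp2, Igfbp3, Igfbp4, Igfbp5, Igfbp6 and Igfbp7. They were chosen by name, as gene spots whose name or accession gives one of these symbols, which found 14 probes on 23 spots per array among 41174 probes on 43379 gene spots (8 of 28786 gene names). Cells came from the walls of the lateral ventricles, labelled as subventricular zone, of mice aged postnatal day 14 to 21, and were grown as a monolayer in serum-free B27 medium with FGF-2 and EGF at 10 ng/ml each. Wild-type (WT) cells were set against Dnmt3a-null cells (KO), which lack a DNA methyltransferase that adds methyl groups to CG sites. How the null allele was made is not given in the labels. Both genotypes were hybridised together in different dyes on each of 6 two-colour arrays, 4 of proliferating cells kept in the growth factors and 2 of differentiating cells, replated for 2 days with these mitogens and then kept 3 days without them. KO RNA was in Cy5 on proliferating arrays 1 and 3 and on differentiating array 2, and in Cy3 on the other arrays. The labels call the arrays of a condition biological replicates without naming animals, so p-values measure only the spread between these arrays, whose small number limits the precision.

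IGF1 and IGF2 bind the IGF1 receptor, a tyrosine kinase that signals through insulin receptor substrates, PI3 kinase and Akt, and the B27 supplement itself contains insulin, which can also act on this receptor. Secreted IGF binding proteins hold these ligands in the fluid around cells; they can keep them from the receptor, carry them, or release them when proteases cut the binding protein. In the postnatal brain, IGF signalling is known for its part in the growth, survival and maturation of neural progenitors and of oligodendrocytes.

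The arrays measured RNA and not DNA methylation. For each member, RefSeq's promoter table (build GRCm38.p6) gives the bases before the gene's start, here the 250 bases up to it, and all 8 members matched, Igfbp2 with 2 starts. The windows below are those of Igfbp2 (first start, chr1:72824230-72824479, plus strand), Igfbp3 (chr11:7213924-7214173, minus strand) and Igfbp4 (chr11:99040994-99041243, plus strand), shown because these members fell together in KO cells when the mitogens were withdrawn, Igfbp2 and Igfbp3 also in WT cells. Igfbp7 (chr5:77408046-77408295, minus strand) is shown because its difference between genotypes came nearest to passing the test. Each is written 5′ to 3′ on the gene's strand, with CG dinucleotides, the sites that DNA methyltransferases act on, in capitals.
Igfbp2: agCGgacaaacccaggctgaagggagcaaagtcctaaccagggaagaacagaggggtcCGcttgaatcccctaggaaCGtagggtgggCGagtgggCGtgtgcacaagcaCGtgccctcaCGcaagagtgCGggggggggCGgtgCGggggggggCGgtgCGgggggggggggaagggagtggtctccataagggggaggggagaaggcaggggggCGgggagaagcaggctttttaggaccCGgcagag
Igfbp3: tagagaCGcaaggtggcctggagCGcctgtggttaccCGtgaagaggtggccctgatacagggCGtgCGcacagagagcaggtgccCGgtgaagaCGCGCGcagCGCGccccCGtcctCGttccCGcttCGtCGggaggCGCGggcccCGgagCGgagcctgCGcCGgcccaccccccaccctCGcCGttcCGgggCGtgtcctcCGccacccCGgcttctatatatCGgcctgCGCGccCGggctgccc
Igfbp4: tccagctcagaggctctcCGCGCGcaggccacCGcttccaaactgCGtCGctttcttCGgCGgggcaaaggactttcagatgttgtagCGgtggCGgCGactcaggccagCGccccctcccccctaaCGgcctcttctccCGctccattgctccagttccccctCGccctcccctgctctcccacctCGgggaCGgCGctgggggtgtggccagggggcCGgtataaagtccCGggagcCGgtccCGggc
Igfbp7: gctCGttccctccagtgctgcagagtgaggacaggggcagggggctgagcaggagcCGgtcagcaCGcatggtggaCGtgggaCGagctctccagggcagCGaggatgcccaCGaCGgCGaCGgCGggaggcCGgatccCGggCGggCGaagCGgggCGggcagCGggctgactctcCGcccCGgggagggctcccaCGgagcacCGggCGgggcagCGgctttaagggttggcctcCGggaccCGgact
The window of Igfbp3 held 32 CG, a number that 4.58% of all 32851 promoter windows of this length reach, Igfbp7 held 26 (9.59%), Igfbp4 22 (14.8%) and Igfbp2 14 (29.4%, or 11 and 35.6% at its second start). Igf1r held the most, 42 (0.865%), and Igf1 the fewest, 5 (55.6%), with 10 at Igfbp5 (37.8%) and 7 at Igfbp6 (46.3%). The median over all windows was 6, and 92.1% held at least 1. The letters TATAAA, as in a TATA box, stand on the gene's strand near the end of the Igfbp4 window and in none of the other member windows; 7.59% of all windows hold them on that strand and 12.4% on either. These counts describe the letters only.

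The cultures carried the markers their label calls for. All 8 neural stem and progenitor genes, Fabp7 and Hes5 among them, were well above background, by the scanner's own call, on at least 1 array of each group, and Sox2 lay at a normalized log2 signal of 12.61 ± 0.31 (SD, n = 4) in WT proliferating and 12.78 ± 0.19 (n = 2) in WT differentiating cells. Dnmt3a was checked first in every array. Each of its 3 probes read lower for KO on all 6 arrays, with log2 ratios from -1.94 to -0.37, so signal remained in KO cells, and which probes lie in the deleted part is not known here. The share of gene spots well above background ran from 52.3% to 59.1% over the channels. Proliferating arrays 1 to 3 correlated at 0.981 to 0.993 with each other over all genes, and proliferating array 4 at 0.958 to 0.97 with them and 0.953 to 0.957 with the differentiating arrays, so it stood between the conditions. On proliferating arrays 3 and 4 the genotypes also differed in sex-linked RNA. Xist was at 12.68 and 13.33 in WT against 11.27 and 11.06 in KO, and Ddx3y at 6.05 and 5.89 against 8.46 and 8.83. The members' KO over WT ratios in proliferating cells are therefore also given over arrays 1 and 2 alone.

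The ligand gene of the axis gave no signal on which a comparison could rest. None of the 3 Igf1 probes was well above background in either genotype or condition, including the probe printed 10 times per array (chr10:87488982-87489041, build mm7), for which 0 of 120 spot readings passed. This bounds the signal at these probes and does not show that the transcript is absent. Igfbp6, which binds IGF2 in preference to IGF1, was well above background only on differentiating array 2, where the log2 signal was 6.87 in both genotypes (chr15:102135489-102135549, mm7). Both genes stayed out of the tests, which left 6 members among 18062 genes tested.

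RNA of the receptor gene was well above background in every channel. Igf1r (probe at chr7:64082649-64082708, mm7) read 8.90, 8.92, 8.32 and 8.36 (normalized log2 signal) for WT on proliferating arrays 1 to 4, beside 8.99, 9.10, 8.45 and 8.64 for KO. WT read 7.90 and 8.43 on differentiating arrays 1 and 2, and KO read 7.82 and 8.79. The groups overlap. Their means ran from KO proliferating (8.80) over WT proliferating (8.63) and KO differentiating (8.31) to WT differentiating (8.16), and each step was within the spread of the arrays. KO exceeded WT by a log2 ratio of 0.17 ± 0.09 (SD, n = 4; 95% interval -0.06 to 0.40) in proliferating cells and 0.14 ± 0.31 (n = 2; -0.18 to 0.47) in differentiating cells. A second probe, at chr7:64043608-64043667, gave 0.20 and 0.15. After mitogen withdrawal the signal was lower by 0.46 on the log2 scale in WT and 0.49 in KO, neither past the threshold (limma, adjusted p = 0.291 and 0.257).

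**Figure D1:**
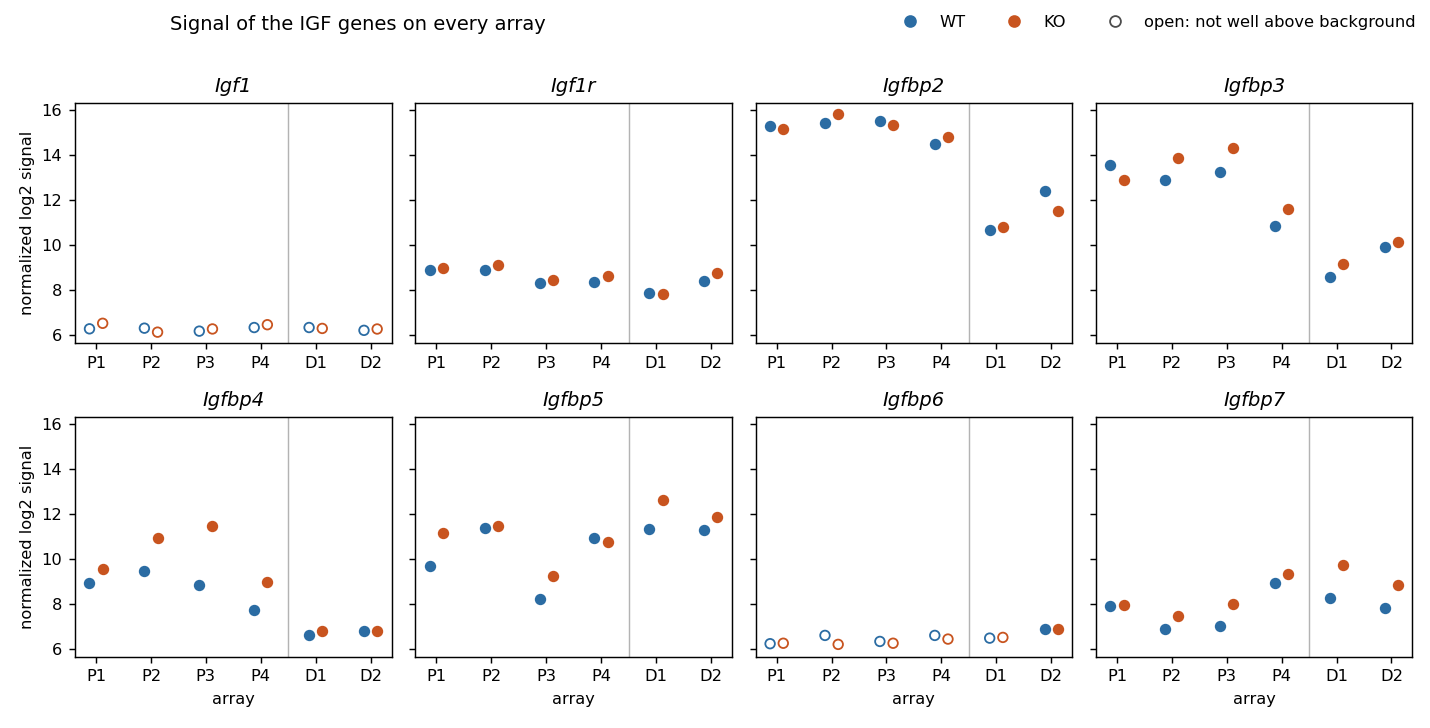
Normalized log2 signal (vertical axis) of the 8 members on proliferating arrays 1 to 4 (P1 to P4) and differentiating arrays 1 and 2 (D1, D2). Points are single channels, WT and KO, and open points were not well above background. Igf1 and Igfbp6 were not tested. Igfbp2 and Igfbp3 sit lower on both differentiating arrays than on any proliferating one in both genotypes, while Igfbp5 has its highest KO signals there (12.62 and 11.86).

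The first comparison asks what changed in each genotype when the mitogens were taken away and the cells differentiated. Igfbp2 and Igfbp3 lost most of their signal in both genotypes, and Igfbp4 in KO cells. Igfbp2, a binding protein of developing brain that also binds integrins, had a measured fall of 12.6-fold in WT and 17.7-fold in KO cells, with 1 of its 4 proliferating spots saturated in each genotype. Igfbp3, the main carrier of IGFs in serum, fell 10.3-fold in WT and 11.6-fold in KO cells, and Igfbp4, an inhibitor of IGF action that the protease PAPP-A cuts, fell 10.9-fold in KO cells. Of the 6 tested members, 2 fell and 0 rose in WT, where 5.81% of 18050 genes fell, 9.27% rose and 15.1% passed either way. In KO 3 fell and 0 rose, while 5.96% of all genes fell, 9.27% rose and 15.2% passed either way. The median change was -1.25 in WT and -1.97 in KO, against 0.06 and 0.05 over all genes.

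Igfbp2 (chr1:73093964-73094023, mm7) was read in WT channels at log2 signals of 15.31, 15.45, 15.55 and 14.49 on the proliferating arrays against 10.68 and 12.41 on the differentiating ones. KO channels read 15.20, 15.85, 15.36 and 14.81 against 10.81 and 11.51. The conditions did not overlap, and the lowest proliferating signal was well above the highest differentiating one. Its means ran from KO proliferating (15.30 ± 0.43 SD) and WT proliferating (15.20 ± 0.48) to WT differentiating (11.55 ± 1.22) and KO differentiating (11.16 ± 0.50), and only the step between conditions passed the test. The change was -3.65 in WT (95% interval -4.49 to -2.81; limma, adjusted p = 0.000806) and -4.15 in KO (-4.98 to -3.31; adjusted p = 0.000914). The red channel was saturated on proliferating arrays 2 (WT) and 3 (KO), so those signals, and the falls computed from them, are lower limits.

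Igfbp3 was read by its brighter probe (chr11:7158599-7158658, mm7, minus strand) at 13.56, 12.89, 13.26 and 10.86 in proliferating WT cells and at 12.91, 13.88, 14.33 and 11.63 in proliferating KO cells. In differentiating cells WT read 8.61 and 9.93, and KO 9.15 and 10.14. The conditions did not overlap, with proliferating array 4 nearest to the differentiating arrays in both genotypes. The change was -3.37 in WT (95% interval -5.18 to -1.56; limma, adjusted p = 0.0243) and -3.54 in KO (-5.35 to -1.73; adjusted p = 0.0200). The second probe (7160474 to 7161483 on the same chromosome) was not well above background on any differentiating array. Its measured signal was 4.24-fold lower there in WT and 5.74-fold lower in KO. Dim signals were to be raised to the array's lowest reading that counts as well above background. They already lay above it, so these are measured values and not lower limits, and dye bias can enter them. That probe did not pass when fitted on its own (limma, adjusted p = 0.131 and 0.0755).

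Igfbp4 (chr11:99161059-99161118, mm7) read 8.92, 9.48, 8.86 and 7.71 in proliferating WT cells and 9.53, 10.95, 11.46 and 8.97 in proliferating KO cells. After withdrawal WT read 6.60 and 6.80, and KO 6.77 and 6.78. All 4 differentiating channels lay within a narrow band below every proliferating one. They counted as well above background but were near it. Igfbp6 read 6.48 and 6.51 on differentiating array 1 without passing that call. This limits what the size of the Igfbp4 fall can show. KO cells changed by -3.45 (95% interval -5.11 to -1.79; limma, adjusted p = 0.0164). WT cells changed by -2.04 (-3.70 to -0.38; adjusted p = 0.0922), which did not pass. The second probe (99157316 to 99157375) gave -2.14 in KO (limma, adjusted p = 0.0528). In WT its measured signal was 2.19-fold lower, with no differentiating WT channel above background (adjusted p = 0.265).

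The calls differed in how firmly they stood. Igfbp2 passed in both genotypes under each of the 14 alternatives tried, at -4.39 to -2.91 in WT and -4.63 to -3.67 in KO. Igfbp3 no longer passed in WT without proliferating array 1 or 2 or either differentiating array (limma, adjusted p = 0.0683, 0.111, 0.258 and 0.120). The same held in KO without proliferating array 1, 2 or 3 or either differentiating array (adjusted p = 0.0536, 0.107, 0.0532, 0.223 and 0.127), with changes of -4.20 to -2.88 over all alternatives. Igfbp4 lost its KO call without proliferating array 2 or either differentiating array (adjusted p = 0.106, 0.148 and 0.180). Igfbp3 in WT also missed the threshold with the mean of both probes (-2.73; adjusted p = 0.0549). Leaving out proliferating arrays 3 and 4 together kept these 5 calls. Igfbp4 in WT passed under 5 of 14 alternatives, among them without those arrays (-2.50; adjusted p = 0.0443), without array 4 alone (-2.38; adjusted p = 0.0447) and with Agilent's processed signals (-3.09; adjusted p = 0.031). All proliferating arrays were on one slide and both differentiating arrays on another, so slide and condition cannot be told apart here. In RNA from whole cultures, fewer cells of one type and less RNA per cell also cannot be told apart.

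Igfbp5, Igfbp7 and Igf1r did not pass in either genotype. Igfbp5, which binds extracellular matrix, lies next to Igfbp2 on chromosome 1 (probe at chr1:73100116-73100175, minus strand, mm7). WT channels read 9.71, 11.40, 8.21 and 10.93 before withdrawal, then 11.34 and 11.31. KO channels read 11.16, 11.47, 9.26 and 10.77, then 12.62 and 11.86. The proliferating arrays spread over more than 3 log2 units in WT, and the WT conditions overlapped, while the KO conditions did not. Igfbp5 changed by 1.26 in WT (95% interval -0.47 to 3.00) and 1.58 in KO (-0.16 to 3.31), which did not pass (limma, adjusted p = 0.295 and 0.188). A second Igfbp5 probe was above background in 1 channel only. Igfbp7, a secreted protein with low affinity for IGFs, changed by 0.35 in WT (-0.89 to 1.59) and 1.09 in KO (-0.15 to 2.32), also short of the threshold (adjusted p = 0.709 and 0.201). Without proliferating array 4, Igfbp7 passed in KO cells at 1.45 (limma, adjusted p = 0.0364).

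**Figure D2:**
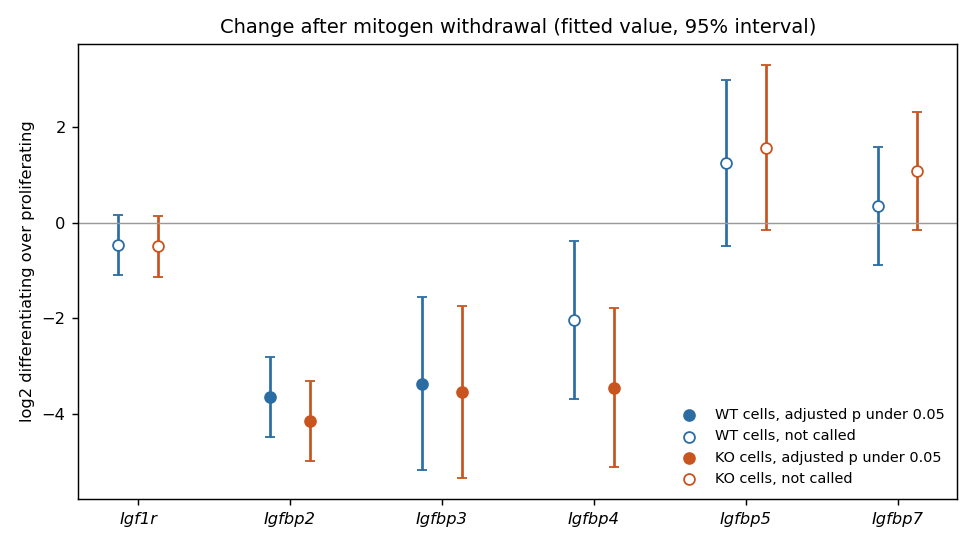
Change in normalized log2 signal from proliferating to differentiating cells (differentiating minus proliferating) for the 6 tested members in WT and KO cells, with limma's 95% intervals. The intervals of Igfbp2 and Igfbp3 lie below 0 in both genotypes, at -3.65 and -3.37 in WT, and those of Igfbp5, Igfbp7 and Igf1r include 0.

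The second comparison asks how proliferating cells without Dnmt3a differ from WT cells. All 6 tested members had a mean log2 ratio above 0, from 0.10 to 1.49, with a median of 0.53 against -0.0062 over all genes. None passed the test (0 of 6, where 0.952% of 18062 genes passed, 0.615% higher and 0.338% lower), and 2, Igfbp4 and Igfbp7, had an unadjusted p under 0.05, as did 16% of all genes. Igfbp4 was furthest from 0. Its ratios were 0.61, 1.46, 2.61 and 1.26 on arrays 1 to 4, positive on 4 of 4, while the WT and KO signals of different arrays overlapped. The mean was 1.49 ± 0.83 (SD, n = 4; 2.8-fold; 95% interval 0.71 to 2.26), which did not pass (limma, adjusted p = 0.118; 0.0529 to 0.284 over the alternatives). Without arrays 3 and 4 it was 1.04 (adjusted p = 0.0661), and the second probe gave 1.14 (adjusted p = 0.148).

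The other ratios in proliferating cells were smaller or less even. Igfbp7 had 0.04, 0.60, 0.99 and 0.41, a mean of 0.51 ± 0.40 (95% interval 0.10 to 0.93; limma, adjusted p = 0.236). Igfbp3 had -0.65 on array 1 and 1.00, 1.07 and 0.77 on arrays 2 to 4, a mean of 0.55 ± 0.81 (-0.13 to 1.22; adjusted p = 0.396). Array 1 thus opposed the other 3, and its second probe did the same, with -1.11 against 1.70, 0.90 and 0.38. Igfbp5 had 1.46, 0.07, 1.05 and -0.17, a mean of 0.60 ± 0.77 (-0.06 to 1.26; adjusted p = 0.347). It was high on the 2 arrays with KO in Cy5 and near 0 on the 2 with KO in Cy3, an order that its differentiating arrays did not share. Igfbp2 also followed the dye, with -0.11 and -0.19 where KO was in Cy5 and 0.40 and 0.32 where it was in Cy3, and a mean of 0.10 ± 0.30 (-0.12 to 0.32; adjusted p = 0.639). Over arrays 1 and 2 alone the means were 0.32 for Igfbp7, 0.17 for Igfbp3, 0.76 for Igfbp5, 0.14 for Igfbp2 and 0.14 for Igf1r, and 0 of 6 members passed (limma, adjusted p = 0.0661 to 0.9). The fit holds a dye term for every gene, and what part the dye or the saturated spots had in these ratios was not tested.

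**Figure D3:**
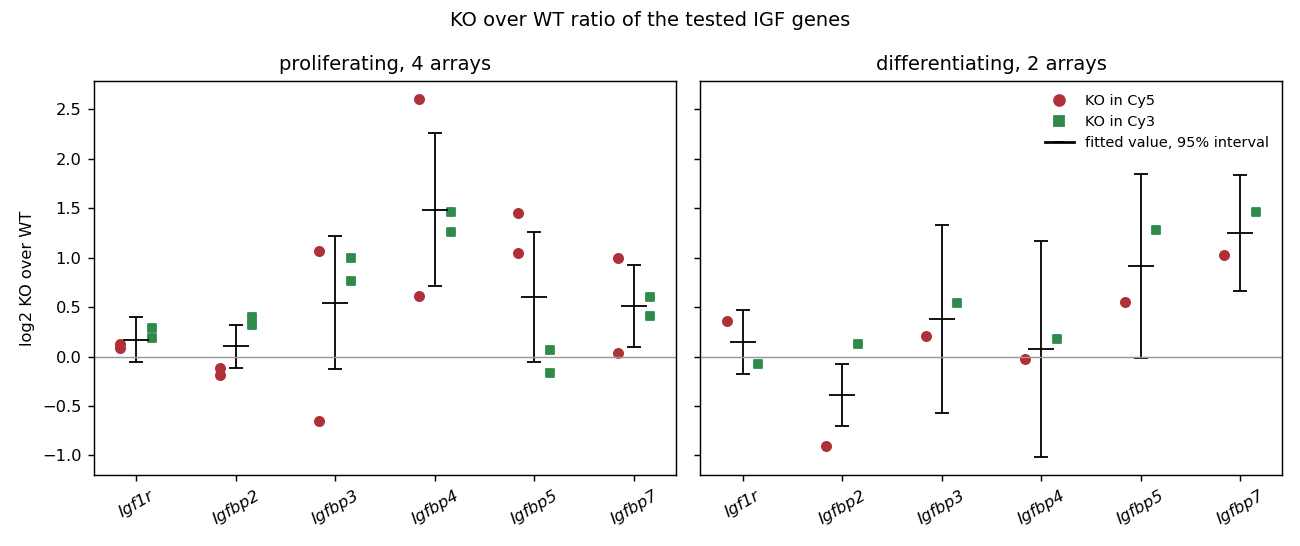
Log2 ratio of KO over WT on each array for the 6 tested members in proliferating (4 arrays) and differentiating cells (2 arrays), with the dye that carried KO RNA and the mean marked. Igfbp4 is above 0 on all 4 proliferating arrays (0.61 to 2.61) and near 0 in differentiating cells, where its signals are near background. Igfbp7 is above 0 on all 6 (0.04 to 1.47).

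The third comparison sets KO against WT cells after mitogen withdrawal. Igfbp7 was higher in KO on both arrays, with signals of 8.26 and 7.80 in WT against 9.72 and 8.83 in KO, which do not overlap (chr5:77280659-77280718, mm7, minus strand). Its ratios were 1.47 and 1.03, a mean of 1.25 ± 0.31 (SD, n = 2; 2.38-fold; 95% interval 0.66 to 1.84). It did not pass (limma, adjusted p = 0.0617), and 0 of 6 members did, where 3.08% of all genes passed, 2.18% higher and 0.902% lower; 2, Igfbp7 and Igfbp2, had an unadjusted p under 0.05, as did 17.5% of all genes. The median over the members was 0.26 and over all genes -0.0072, with 5 of 6 positive. Igfbp7 passed when proliferating array 3 was left out (adjusted p = 0.0196) or arrays 3 and 4 both (adjusted p = 0.0108), although its own ratios are unchanged by this, and under 5 of 17 alternatives in all. It did not pass with only 1 differentiating array (1.03 and 1.47; adjusted p = 0.740 and 0.378), where the lone array is taken to vary like the others.

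Igfbp5 had ratios of 1.28 and 0.56 in differentiating cells, a mean of 0.92 ± 0.51 (95% interval -0.01 to 1.85; limma, adjusted p = 0.293). Its lower KO signal, 11.86, was above its higher WT signal, 11.34, and it passed only with the 2 differentiating arrays fitted alone (adjusted p = 0.0287). Igfbp3 had 0.55 and 0.21, a mean of 0.38 ± 0.24 (-0.57 to 1.33; adjusted p = 0.706). Igfbp2 split with the dye again, at 0.12 with KO in Cy3 and -0.90 with KO in Cy5, and its mean was -0.39 ± 0.73 (-0.70 to -0.08; adjusted p = 0.192). The Igfbp2 interval excludes 0 although these ratios differ in sign. It comes from the fit of all 6 arrays, whose dye term takes up this split, and not from these 2 arrays alone. Igfbp4, furthest from 0 in proliferating cells, had 0.17 and -0.02 here, a mean of 0.08 ± 0.14 (-1.02 to 1.17; adjusted p = 0.964). That interval is wide because all 6 arrays share one estimate of the spread. Igfbp4 signals in differentiating cells lay near background (6.60 to 6.80), which limits what a ratio near 0 can show.

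Whether the KO effect differs between the conditions was tested directly, and 0 of 6 members passed, where 0.0498% of all genes did (0.0332% higher and 0.0166% lower); 3 had an unadjusted p under 0.05, as did 12.1% of all genes. Igfbp4 had a difference, differentiating minus proliferating, of -1.41 (95% interval -2.75 to -0.07; limma, adjusted p = 0.393), Igfbp7 of 0.74 (0.02 to 1.46; adjusted p = 0.402) and Igfbp2 of -0.49 (-0.87 to -0.11; adjusted p = 0.295). Igfbp3 (-0.17), Igfbp5 (0.31) and Igf1r (-0.03) had intervals that include 0. The Igfbp4 difference rests on differentiating signals near background. These comparisons share samples with the others, so their values are not separate evidence.

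The rest of the pathway was read from lists of 45 genes, of which 44 were on the array under these symbols and 37 were tested; Irs2 was not matched. Among the other ligands and receptors, Igf2 read only 6.12 to 6.87 on the log2 scale, with KO over WT ratios of 0.12 ± 0.03 (n = 4; limma, adjusted p = 0.448) and 0.48 ± 0.16 (n = 2; adjusted p = 0.0685). Igf2r, which takes IGF2 up for breakdown, had ratios of 0.09 ± 0.69 and 0.03 ± 0.30. Insr, the insulin receptor gene, was above background on 0 arrays at its brightest probe, as were Ins1, Igfbp1, Igfals (the serum partner of Igfbp3), Pappa and Pappa2, the protease genes for Igfbp4 and Igfbp5. Downstream, Irs1, which links the receptor to PI3 kinase, had 0.31 ± 0.83 and 0.97 ± 0.26 (adjusted p = 0.626 and 0.254), and Akt1 had 0.02 ± 0.20 and -0.10 ± 0.04 (adjusted p = 0.961 and 0.798).

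Of the 37 tested pathway genes 0 passed in proliferating cells and 1, Igfbpl1, passed in differentiating cells, with list medians of 0.08 and -0.04. Igfbpl1 encodes a protein with a binding domain like that of the members. Its signals were 8.41 and 8.46 in WT against 7.24 and 7.16 in KO differentiating cells, which do not overlap, and 6.59, 6.82, 6.90 and 6.89 against 6.53, 6.57, 6.60 and 6.42 in proliferating cells. It was thus lower in KO on 6 of 6 arrays, by -1.23 ± 0.09 (n = 2; 95% interval -1.53 to -0.93; limma, adjusted p = 0.0159) after withdrawal and -0.27 ± 0.17 (n = 4; adjusted p = 0.226) before, or -0.15 ± 0.13 over proliferating arrays 1 and 2 alone (n = 2). In proliferating cells Igfbpl1 was well above background on 3 of 4 WT and 1 of 4 KO arrays. Its ratios there, and the starting level of its change on withdrawal, are thus near background. Igfbpl1 opposed Igfbp2, Igfbp3 and Igfbp4 on withdrawal, and rose by 1.63 in WT (adjusted p = 0.000806) and 0.67 in KO (adjusted p = 0.0279). The difference between its KO effects, -0.96, did not pass (adjusted p = 0.114). Its KO call needed both differentiating arrays, since without array 1 or 2 it was -1.39 and -1.08 (adjusted p = 0.277 and 0.274), and it grew to -2.08 when Agilent's processed signals were used (adjusted p = 0.0134). Its rise in WT passed under all 14 alternatives run, and that in KO under 6, with no call without proliferating array 1, 2 or 3 or either differentiating array (adjusted p = 0.0925, 0.124, 0.0963, 0.197 and 0.141). The summed signal of 8 neuronal markers, Map2 and Tubb3 among them, moved with it. Each of the 8 was lower in KO than in WT differentiating cells without overlap. How often all genes separate in this way was not counted. On the log2 scale the sum was 14.34 to 14.52 in WT and 12.98 to 13.22 in KO differentiating cells, where Stmn2, Dlx2 and Gad1 were above background on 0 KO arrays. Their part in the Igfbpl1 value was not tested.

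On withdrawal 3 of the 37 pathway genes rose and 1 fell in WT, where 15.1% of all genes passed either way, and 2 rose and 1 fell in KO, where 15.2% did. Besides Igfbpl1 these were Foxo1, a transcription factor that Akt holds out of the nucleus, Gsk3b, a kinase that Akt inhibits, and Pik3cb, a catalytic subunit of PI3 kinase. Foxo1 rose by 1.22 in WT and 1.07 in KO (limma, adjusted p = 0.00416 and 0.00763), and Gsk3b fell by 0.73 and 0.66 (adjusted p = 0.0194 and 0.0285). Pik3cb rose in WT by 0.81 (adjusted p = 0.0244), and in KO had 0.12 (adjusted p = 0.709), a difference whose own test gave -0.70 (adjusted p = 0.190). Without either differentiating array none of these 5 calls held (adjusted p = 0.0506 to 0.219). Gsk3b and Pik3cb also lost their calls without proliferating array 1, 2 or 3 (0.059 to 0.121), and Foxo1 lost that in KO without array 1 or 2 (0.0571 and 0.0506) or from Agilent's processed signals (0.67; adjusted p = 0.0831). Without proliferating arrays 3 and 4 both, Gsk3b and Pik3cb did not pass (0.109 to 0.140) and Foxo1 did (0.0365 and 0.0379). The list medians, -0.02 in WT and -0.02 in KO, lay near those of all genes. These 3 genes, and Igf2bp2 and Igf2bp3, RNA-binding proteins of the Igf2 message, are named after their values were seen. Igf2bp2 had ratios of 0.10, 0.63, 1.21 and 1.07 in proliferating and 1.16 and 1.17 in differentiating cells, positive on 6 of 6 arrays, and did not pass (adjusted p = 0.155 and 0.0931). Its mean was 0.75 over the 4 proliferating arrays and 0.36 ± 0.37 over arrays 1 and 2. Igf2bp3 was also positive on 6 of 6, with means of 1.41 and 0.93 (adjusted p = 0.207 and 0.516), but the first of these was 0.45 ± 0.13 over arrays 1 and 2 alone. Its WT signal on proliferating arrays 3 and 4 was 6.72 and 6.18 against 10.97 and 10.72 on arrays 1 and 2.

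**Figure D4:**
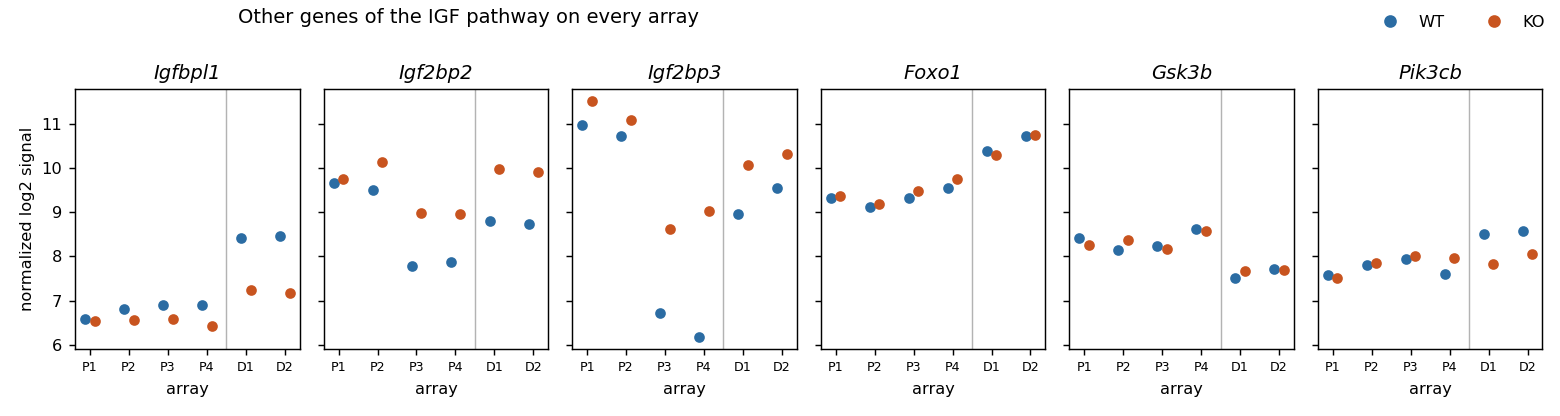
Normalized log2 signal (vertical axis) of Igfbpl1, Igf2bp2, Igf2bp3, Foxo1, Gsk3b and Pik3cb on each array, named as in the plot of the members, for WT and KO. Igfbpl1 is highest in WT differentiating cells (8.41 and 8.46), and Igf2bp3 is low in WT on proliferating arrays 3 and 4 (6.72 and 6.18).

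Several members are known from cells other than neural stem cells, such as microglia for Igf1 and vessels or meninges for Igfbp7, so marker lists of those cells were read beside them. Of 12 microglial genes, 9 were above background on no proliferating array and 10 on no differentiating array in either genotype, among them Aif1, Itgam, Cx3cr1, Csf1r and C1qa. C1qb and Cd68 were among those with signal. The log2 summed signal of all 12, most of them not above background, spanned 9.84 to 9.98 in proliferating and 10.01 to 10.13 in differentiating cells. The vascular markers Cdh5, Cldn5, Rgs5 and Kcnj8 and the fibroblast markers Dcn and Lum were above background on 0 arrays. The summed signal of all 12 endothelial and mural genes, Acta2 and Pdgfrb among them, was 12.45 to 13.02 in WT and 12.54 to 13.09 in KO differentiating cells. Acta2 made up most of it, with means of 12.06 in WT and 12.27 in KO, so the sum says little about the other genes. The sum of the 10 fibroblast and meningeal genes, Pdgfra and Fbln1 among them, was 11.64 to 11.94 and 11.66 to 11.90. Pdgfra, which the oligodendroglial list also holds, made up most of this sum, with means of 11.25 in WT and 10.87 in KO. Single genes of these lists did move with Igfbp7. In differentiating cells Kdr read 6.45 to 6.51 in WT and 7.43 to 7.67 in KO, Col1a1 6.44 to 6.92 and 7.47 to 8.31, and Fbln1 8.06 to 8.63 and 8.92 to 9.71. Over the lists, 2 of 12 endothelial and mural genes and 3 of 10 fibroblast and meningeal genes were higher in KO without overlap, and 2 and 0 were lower. Pdgfrb, 1 of the 2 lower genes, read 10.53 to 10.91 in WT and 9.89 to 10.43 in KO. Genes near background are in these counts, Vtn among the higher and Pecam1 among the lower. How often all genes separate in this way was not counted.

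Markers of other brain cells also differed between the genotypes in differentiating cells. The 11 oligodendroglial genes, Olig1 and Gpr17 among them, summed to 16.01 to 16.36 in WT and 17.36 to 17.67 in KO, and to 15.63 to 16.21 against 15.97 to 17.17 in proliferating cells. Ependymal markers (4 genes, Foxj1 and Mlf1 among them) summed to 10.2 to 10.3 in WT and 11.1 to 11.8 in KO differentiating cells, and choroid plexus markers (6 genes, Folr1 and Otx2 among them) to 9.10 to 9.23 and 9.67 to 9.99, with Ttr and Kl above background on 0 arrays. Folr1 (mean 7.64 in WT, 9.07 in KO) carried most of the choroid plexus difference, with the rest of that list near background. Aqp1 was above background on 2 WT and 0 KO differentiating arrays (mean 6.67 against 6.40). Without overlap, 8 of 11 oligodendroglial, 3 of 4 ependymal and 2 of 6 choroid plexus genes were higher in KO. Lower were 2 (Olig1 and Olig2), 0 and 0. Genes near background enter these counts, such as Otx2 (5.96 to 6.13 in WT, 6.29 to 6.38 in KO). Such counts compare only 2 arrays per genotype, and how often all genes separate in this way was not counted. The sum of 8 astroglial markers, Slc1a3 and Aldoc among them, was 16.77 to 16.90 in WT and 16.73 to 17.10 in KO differentiating cells, up from 15.46 to 16.26 and 15.85 to 16.38. Within it 5 genes, such as Gfap (11.34 against 13.98) and Aqp4 (10.01 against 12.92), were higher in KO differentiating cells without overlap. Lower were 2, Slc1a3 (15.42 against 14.46) and Aldoc (15.64 against 15.14), the brightest of the list. The part of these markers in the Igfbp7 and Igfbp4 values was not tested.

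Beside the fall of Igfbp2, Igfbp3 and Igfbp4 on withdrawal, the stem cell intermediate filament gene Nes went from 14.24 ± 0.65 to 12.07 ± 0.50 in WT and from 14.46 ± 0.54 to 11.46 ± 0.15 in KO. Of the 8 stem and progenitor markers, 2 fell in WT (Nes and Vim), 1 fell in KO (Nes), and 0 rose in either. Among all genes 5.81% fell and 9.27% rose in WT, and 5.96% fell and 9.27% rose in KO. Whether past the threshold or not, 3 of the 8 had a value below 0 in WT and 4 in KO. Sox2 had values of 0.17 in WT and 0.03 in KO, Hes5 of 0.54 and 0.52 and Fabp7 of 0.05 and -0.29, none past the threshold. Their part in the fall of the members was not tested.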

How the data were processed

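Per the file headers, the authors deposited what Feature Extraction 9.5.1.1 wrote for Agilent design 014868, with probe positions on mm7: spot intensity as mean signal and local background per dye, a processed intensity, and a log10 ratio of Cy5 over Cy3. The deposited values per sample are these log10 ratios, turned to KO over WT. Total RNA, 500 ng per the labels, was labelled for each channel.

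Signals were corrected by normexp (offset 50) and loess in limma 3.58.1 (R 4.3.3, statmod 1.5.0, data.table version 1.17.8). Control spots (1639 per array) and outlier spots (859) were left out, and a gene's brightest probe was used. A gene was tested if either channel exceeded background by the scanner's own rule on 2 or more arrays. Log2 ratios of all 6 arrays were fitted with a coefficient per condition and a dye term, giving 3 residual and 2.56 prior degrees of freedom. Withdrawal was read from separate channels in limma, with Aquantile scaling (intraspot correlation 0.764). Intervals are 95% and unadjusted; adjusted p-values are 2-sided Benjamini-Hochberg values over all genes, with a threshold of 0.05. The scripts were tested on simulated data. Members, lists and alternatives were chosen with earlier results of these data known. Named by rule were all members, Dnmt3a, pathway genes that passed in a KO comparison, Igf2, Igf2r, Insr, Irs1, Irs2, Pappa and Akt1. The rule also named the 2 markers per list with the highest mean signal over all groups, Xist and Ddx3y. Other markers named here, Kdr, Col1a1, Gfap, Aqp4 and Nes among them, lie outside this rule and were picked with their values known. Genes most like a member were to be named only for members that passed in a KO comparison.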

Additional observations from a re-analysis of the deposited data

How the results depend on the processing

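In proliferating KO against WT cells and in the difference of KO effects, 0 members passed under every alternative run. In differentiating cells 1 passed, in place of 0, without a dye term, with array weights and with proliferating arrays 3 and 4 both left out, 2 passed with that condition fitted alone, and 0 to 1 when single arrays were left out. In WT withdrawal 1 passed, in place of 2, with the mean of all probes, 3 with Agilent's processed signals, without a dye term and without proliferating arrays 3 and 4, and 4 with a replicate block, and 1 to 3 when single arrays were left out; in KO withdrawal 1 to 4 did. The replicate block also gave 4 in KO. The block rests on a shared number only. Ratios of the same number correlated at -0.37 and -0.29 in their deviations. This cannot decide whether they are paired, since their KO RNA was in opposite dyes in proliferating and differentiating cells. Mean signals correlated at -0.057 and 0.11. Signs turned only for members that did not pass. The Igf1r difference of KO effects was 0.0053 without background correction, 0.0083 without proliferating arrays 3 and 4, and -0.31 to 0.25 when single arrays were left out. The Igfbp3 difference was 0.20 without both of those arrays and -0.56 to 0.20 over all alternatives (0.17 without array 3). When single arrays were left out, the Igfbp5 difference spanned -0.69 to 1.32 and Igf1r withdrawal in KO -1.01 to 0.023. KO over WT in differentiating cells then spanned -0.14 to 0.43 for Igf1r, -0.15 to 0.30 for Igfbp4 and -0.093 to 1.93 for Igfbp5. The cause was not tested. A slide block was not run, since slide and condition coincide. Each probe fitted on its own, and the means of pathway genes over proliferating arrays 1 and 2, were chosen after seeing the data. Igf1 and Igfbp6 are limited by signal over background; with no filter their adjusted p-values were 0.136 or more (limma).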
